A study of Rattus norvegicus with 12 samples.

Results

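Rats of the Flinders Sensitive Line (FSL) that had been given L-acetyl-carnitine (LAC) and were labelled non-responders were compared with vehicle-treated rats of the Flinders Resistant Line (FRL). The non-responder libraries (nrFSL) numbered 3 and the FRL vehicle libraries 3, so 6 of the 12 libraries of the series entered the comparison; they were chosen by their labels alone. The other 6 libraries were 3 of FSL given LAC and labelled responders and 3 of FSL on vehicle. All animals were male rats of the Sprague-Dawley strain label, and the tissue was ventral dentate gyrus, the input gate of the ventral hippocampus. The drink was tap water for vehicle and 0.3% LAC (w/v) in tap water for treated rats, an intake near 210 mg/kg a day over 7 days. No source used here gives the age, the number of animals in a library or the measure that set non-responders apart from responders. The non-responders differed from FRL vehicle both in line and in treatment, so the part of each cannot be told apart in these 6 libraries.

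The FSL was bred selectively from Sprague-Dawley stock and is used as a rat model of depression-like behaviour, with the FRL as its companion line. Such lines carry different fixed alleles across the genome, so a gene can differ in level between them in any tissue and at any time. LAC carries acetyl groups and supports the entry of fatty acids into mitochondria, and in rodents it has been studied for rapid antidepressant-like effects and for histone acetylation at the promoter of Grm2, the gene of the metabotropic glutamate receptor mGlu2. The comparison addresses which differences between the lines were still present in treated animals that did not respond.

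Levels are given as CPM (counts per 1e+06 counts in genes) on library sizes scaled by the trimmed mean of M values (TMM). A gene was called when the adjusted p of edgeR's quasi-likelihood test (Benjamini-Hochberg over 11750 genes, two-sided, all 12 libraries in 1 fit) was under 0.05. Fold changes are log2 values of non-responders over FRL vehicle, each with its standard error. Counts in genes came to 7.07 to 7.72 M (M for mega) in the non-responder libraries and 5.91 to 7.86 M in FRL vehicle. The labels do not say whether the libraries of a group came from separate animals or pools, so the p-values measure the spread between these libraries.

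A pair of the 6 libraries stood apart. Non-responder 1 held Ttr, the transthyretin gene that marks choroid plexus, at 5368 CPM, against 7.67 and 40.3 CPM in the other non-responders and 16.7, 3.06 and 8.96 CPM in FRL vehicle. Prox1, the transcription factor that defines dentate granule neurons, stood at 83.6, 79.3 and 98.4 CPM in non-responders and at 105, 10.4 and 75.7 CPM in FRL vehicle, so FRL vehicle 2 was low in the marker of the labelled tissue. Across the 10 granule neuron markers among the genes counted, 8 of them tested, the summed level was 500 to 550 CPM in non-responders. It was 386 to 632 CPM in FRL vehicle. The other 6 libraries, which share the fit, also varied. Prox1 was at 9.15 CPM in responder 1, against 89.5 and 117 CPM in the other responders. Meningeal and fibroblast markers summed to 2746 CPM in FSL vehicle 3, against 213 and 993 CPM in FSL vehicle 1 and 2. In bulk tissue, fewer cells of a type and less RNA per cell cannot be told apart.

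Only 5 genes separated LAC non-responders from FRL vehicle at the threshold, which is 0.0426% of the genes tested. Car3, Rnase4 and Ephx2 fell, 0.0255% of genes, and Ghdc and Cmc1 rose, 0.017%. Car3 encodes carbonic anhydrase 3, a cytosolic enzyme with weak CO2-hydrating activity that is abundant in fat and muscle. Rnase4 encodes a secreted ribonuclease, and Ephx2 encodes soluble epoxide hydrolase, which turns epoxides of fatty acids into diols. Cmc1 encodes a mitochondrial protein that takes part in the assembly of cytochrome c oxidase, and Ghdc encodes a protein with a GH3 domain. Without adjustment 616 genes (5.24%) had p under 0.05, of which 370 were higher (3.15% of genes tested) and 246 lower (2.09%). In 1605 genes (13.7%) the libraries of the groups did not overlap, with 835 higher (7.11%) and 770 lower (6.55%). The count of called genes was 2 without FRL vehicle 1, non-responder 1 or non-responder 2, 3 without FRL vehicle 2, responder 2 or responder 3, 12 without FSL vehicle 3, and 26 by DESeq2. The median log2 fold change over all genes was -0.00060, and 49.8% of the values were positive.

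**Figure D1:**
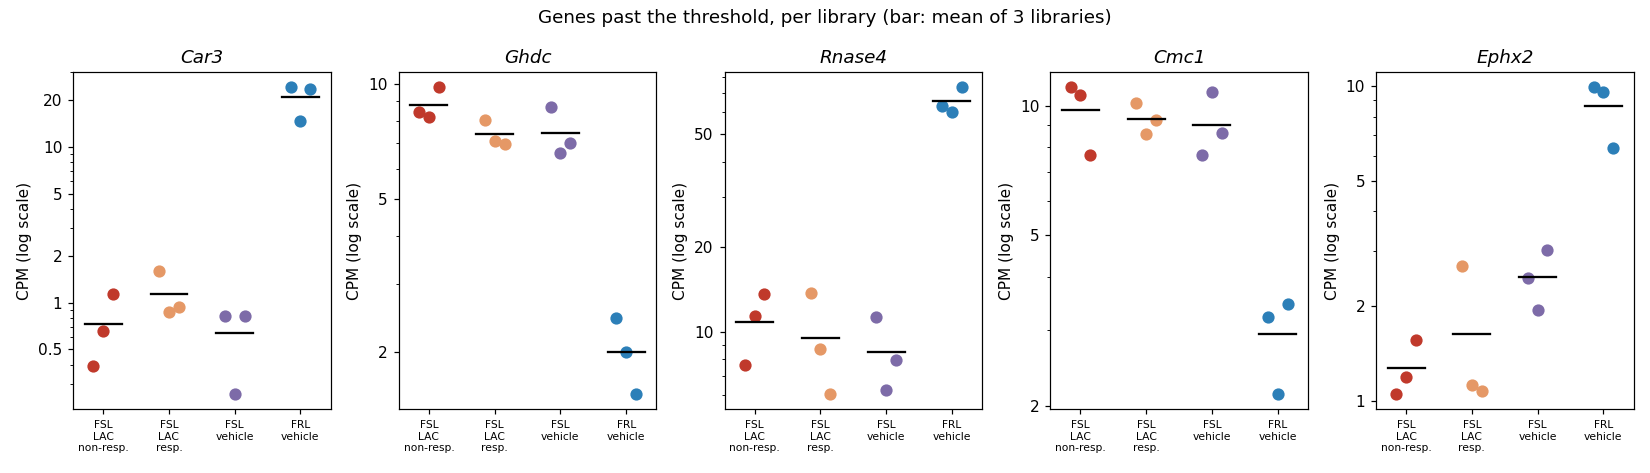
Levels in CPM of the 5 called genes in each library (log axis), with points for single libraries and bars for the mean of 3, in LAC non-responders, LAC responders, FSL vehicle and FRL vehicle. In each gene the 3 FRL vehicle libraries lie apart from the 9 FSL libraries, below them for Ghdc and Cmc1 and above them for Car3, Rnase4 and Ephx2.

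The promoters of the called genes are shown as the sequence at the start of the genes that differed. RefSeq's table on GRCr8 matched 3 of the 5, and Car3 and Ephx2 have no entry. Each stretch runs from 250 bases before to 50 bases after the annotated start, 5′ to 3′ on the gene's strand, and is the reference sequence, not that of the FSL or FRL. Capitals mark matches to 2 short promoter elements, the CCAAT box and the GC box (GGGCGG), and to the E-box CACGTG, on either strand. Ghdc lies on chr10:86198092-86198391 (minus strand), Rnase4 on chr15:26786037-26786336 (plus strand) and Cmc1 on chr8:126735514-126735813 (minus strand).
Ghdc: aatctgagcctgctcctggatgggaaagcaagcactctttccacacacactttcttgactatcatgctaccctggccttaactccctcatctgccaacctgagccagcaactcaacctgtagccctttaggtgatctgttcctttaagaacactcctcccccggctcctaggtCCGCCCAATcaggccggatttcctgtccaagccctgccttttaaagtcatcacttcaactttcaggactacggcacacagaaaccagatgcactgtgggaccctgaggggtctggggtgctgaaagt
Rnase4: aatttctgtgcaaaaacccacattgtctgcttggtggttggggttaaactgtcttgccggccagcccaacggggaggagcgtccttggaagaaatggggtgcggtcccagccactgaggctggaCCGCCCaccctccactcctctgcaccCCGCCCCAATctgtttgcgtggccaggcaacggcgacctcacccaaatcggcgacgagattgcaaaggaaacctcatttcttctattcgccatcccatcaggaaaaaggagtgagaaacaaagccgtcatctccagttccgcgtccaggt
Cmc1: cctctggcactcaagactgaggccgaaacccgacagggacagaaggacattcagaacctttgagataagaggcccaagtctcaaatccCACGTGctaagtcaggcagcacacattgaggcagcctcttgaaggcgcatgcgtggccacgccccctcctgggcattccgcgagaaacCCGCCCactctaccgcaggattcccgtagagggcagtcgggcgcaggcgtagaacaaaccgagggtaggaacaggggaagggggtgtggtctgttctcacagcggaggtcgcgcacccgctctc
The Ghdc window held a GC box from -77 to -72 that overlapped a CCAAT box from -73 to -69, positions counted from the start. The Rnase4 window held GC boxes from -126 to -121 and from -100 to -95, the second overlapping a CCAAT box from -95 to -91. The Cmc1 window held a GC box from -74 to -69 and an E-box from -162 to -157. Of 33469 promoters in the table, 33.1% held the GC box, 37.5% the CCAAT box and 6.42% this E-box. None of the 3 windows held the TATA box TATAAA (14.2% of promoters), the cAMP response element TGACGTCA (1.83%), a glucocorticoid response element (0.0149%) or a peroxisome proliferator response element (0.0538%), searched on both strands.

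Car3 showed the largest difference among the called genes. Its level was 0.394, 0.661 and 1.14 CPM in non-responders, against 24.1, 14.6 and 23.6 CPM in FRL vehicle. The lowest FRL vehicle library was far above the highest non-responder, and the reads behind these levels numbered 3 to 8 per library in non-responders and 110 to 187 in FRL vehicle. The mean was 0.730 ± 0.375 CPM in non-responders and 20.8 ± 5.31 CPM in FRL vehicle (SD, n = 3 each), 28-fold lower, with a log2 fold change of -4.81 ± 0.42 and an edgeR adjusted p of 0.00153. Responders, at 1.59, 0.871 and 0.940 CPM, and FSL vehicle, at 0.818, 0.259 and 0.822 CPM, lay in the same low range.

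Rnase4 stood at 7.62, 11.4 and 13.6 CPM in non-responders and at 63.2, 59.8 and 73.4 CPM in FRL vehicle. The 2 groups were separated by a wide gap, and the spread within each was small beside it. The mean was 6.01-fold lower in non-responders, with a log2 fold change of -2.59 ± 0.30 and an edgeR adjusted p of 0.0113. Rnase4 belongs to a family of similar genes and in mouse and human shares its start with the gene of angiogenin, so its count depends on how shared reads were assigned.

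Ephx2 stood at 1.05, 1.19 and 1.56 CPM in non-responders and at 9.92, 9.59 and 6.38 CPM in FRL vehicle. All non-responder libraries lay under all FRL vehicle libraries, as in 6.55% of all genes tested. The log2 fold change was -2.76 ± 0.38, 6.76-fold lower, with an edgeR adjusted p of 0.0333. Clu, the clusterin gene next to Ephx2 in the order of genes, had 1040, 817 and 775 CPM in non-responders and 723, 702 and 711 CPM in FRL vehicle, a log2 fold change of 0.31 ± 0.10 in the other direction (edgeR adjusted p = 0.925).

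Ghdc was the clearer of the genes that rose, at 8.41, 8.20 and 9.79 CPM in non-responders and 2.45, 2.0 and 1.55 CPM in FRL vehicle. The mean was 8.80 ± 0.866 CPM in non-responders and 2.0 ± 0.448 CPM in FRL vehicle (SD, n = 3 each), 4.34-fold higher, with a log2 fold change of 2.12 ± 0.21 and an edgeR adjusted p of 0.00341. Cmc1 stood at 11.0, 10.6 and 7.66 CPM in non-responders and at 3.22, 2.13 and 3.45 CPM in FRL vehicle. Its log2 fold change was 1.74 ± 0.23, 3.35-fold higher, with an edgeR adjusted p of 0.0297. In both genes the lowest non-responder library was above the highest FRL vehicle library, as in 7.11% of all genes tested.

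The 10 tested genes nearest to the called genes on either side were not called, and their log2 fold changes ran from -0.79 to 0.31. Over all genes tested the share called was 0.0426%. The called genes were picked for their small p in this comparison, so larger differences than at their neighbours follow from that choice. The lack of overlap between the groups in the called genes follows largely from it too. Car3 and Ghdc were called with any 1 of the 6 libraries left out, with adjusted p from 0.00337 to 0.019 for Car3 and from 0.0107 to 0.0434 for Ghdc. The Rnase4 call was lost without FRL vehicle 1 (adjusted p = 0.0597), non-responder 1 (0.0725) or non-responder 2 (0.121). The Cmc1 call was kept only without non-responder 3 (0.0355), and the adjusted p reached 0.209 otherwise. The Ephx2 call was kept only without FRL vehicle 3 (0.0441), and the adjusted p reached 0.334 otherwise. Since all 12 libraries share 1 fit, the Cmc1 call was also lost without responder 2 (0.0584) or responder 3 (0.0656), and the Ephx2 call without responder 2 (0.0584), responder 3 (0.0553), FSL vehicle 1 (0.0694) or FSL vehicle 2 (0.0583). With the libraries that stood apart, non-responder 1 and FRL vehicle 2, both left out, Car3 remained called (log2 fold change -4.71, adjusted p = 0.0193) and the other 4 did not (Ghdc 2.14, 0.185; Rnase4 -2.45, 0.24; Cmc1 1.45, 0.72; Ephx2 -2.56, 0.72), with 2 libraries a group.

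The levels in the other FSL groups place these genes. Values of the 3 FSL groups against FRL vehicle share the same 3 FRL libraries, so they are given side by side and not as separate support. Car3 had log2 fold changes over FRL vehicle of -4.81 in non-responders, -4.16 in responders and -5.02 in FSL vehicle. Rnase4 had -2.59, -2.77 and -2.95 in the same order of groups, Ghdc 2.12, 1.87 and 1.87, and Cmc1 1.74, 1.68 and 1.64. In the edgeR fit of all libraries these 4 passed the threshold in each of the groups, where 5 genes were called in non-responders, 10 in responders (0.0851%) and 8 in FSL vehicle (0.0681%). Ephx2 passed in non-responders (-2.76) and responders (-2.39 ± 0.37, adjusted p = 0.0453) but not in FSL vehicle (-1.79 ± 0.36, adjusted p = 0.127) in that fit. Ephx2 passed in FSL vehicle in 1 of 26 alternatives, DESeq2 (adjusted p = 0.00559), and its call in responders was lost in 17 of 26. The Cmc1 call was lost in 18 of 26 alternatives in FSL vehicle and in 15 of 26 in responders, and the Ghdc call in 5 of 26 in each. The Rnase4 call was lost in 1 in FSL vehicle and 3 in responders, and the Car3 call in 1 in each.

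**Figure D2:**
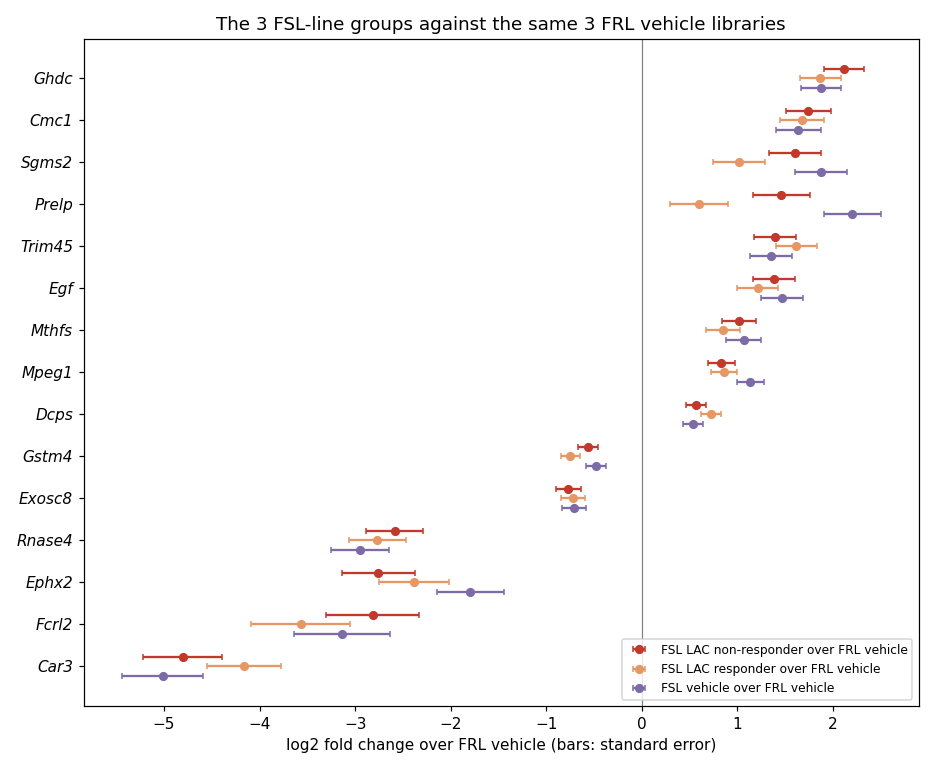
Log2 fold changes over FRL vehicle, with standard errors, of the 15 leading genes in LAC non-responders, LAC responders and FSL vehicle, all against the same 3 FRL vehicle libraries. Car3, Rnase4, Ghdc and Cmc1 sit at similar values in the 3 groups, while Prelp runs from 0.60 in responders to 2.20 in FSL vehicle.

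The direct comparisons bear on whether non-responders differed from the other FSL rats at these genes. No gene passed the threshold between non-responders and FSL vehicle (0% called, lowest edgeR adjusted p 0.976; 495 genes, 4.21%, at unadjusted p under 0.05; 2 genes by DESeq2 and 0 by limma-voom). None passed between non-responders and responders either (lowest edgeR adjusted p 0.992; 369 genes, 3.14%, at unadjusted p under 0.05; 0 by DESeq2 and 0 by limma-voom). The non-responder minus FSL vehicle difference in Car3 was 0.21 ± 0.54, with a 95% interval from -0.98 to 1.39, which holds values above 2-fold, so the groups are not shown to be alike. For Ghdc it was 0.24 ± 0.19, with an interval from -0.17 to 0.66, and for Cmc1 0.11 ± 0.21, from -0.36 to 0.57. Ephx2 stood lower in every non-responder library than in every FSL vehicle library (1.05 to 1.56 CPM against 1.94 to 3.02 CPM), a log2 difference of -0.96 ± 0.40 that did not pass (edgeR adjusted p = 0.976); 7.62% of genes had no overlap between these groups.

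A second tier of genes came close to the threshold without passing it. Egf, the epidermal growth factor gene, stood at 12.9, 13.1 and 12.9 CPM in non-responders and at 4.12, 4.53 and 6.38 CPM in FRL vehicle, a log2 fold change of 1.39 ± 0.22 (edgeR adjusted p = 0.0835). Trim45, of the family of ubiquitin ligases with a tripartite motif, had 8.54, 8.86 and 8.09 CPM in non-responders and 2.83, 2.53 and 4.48 CPM in FRL vehicle (1.39 ± 0.22, adjusted p = 0.0835). Sgms2, which encodes a sphingomyelin synthase of the plasma membrane, had 12.1, 10.8 and 10.5 CPM in non-responders and 3.35, 4.79 and 2.76 CPM in FRL vehicle (1.61 ± 0.27, adjusted p = 0.0975). In these genes the non-responder libraries were close to one another. All lay above FRL vehicle, as in 7.11% of all genes tested.

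Mpeg1, the gene of the macrophage pore-forming protein perforin-2, stood at 37.5, 37.7 and 45.3 CPM in non-responders and at 24.1, 22.6 and 20.9 CPM in FRL vehicle (0.83 ± 0.14, edgeR adjusted p = 0.0975). Exosc8, a subunit of the RNA exosome, was at 9.73, 9.65 and 8.66 CPM in non-responders and 15.6, 16 and 16.4 CPM in FRL vehicle (-0.77 ± 0.13, adjusted p = 0.0975). Fcrl2, an Fc receptor-like gene, was at 1.97, 2.12 and 1.99 CPM in non-responders and 20.1, 12.7 and 10.3 CPM in FRL vehicle (-2.82 ± 0.49, adjusted p = 0.114). Gstm4, a glutathione transferase with close copies, was at 18.5, 20.1 and 18.3 CPM in non-responders and 28.3, 26.9 and 29.1 CPM in FRL vehicle (-0.56 ± 0.10, adjusted p = 0.142). Mthfs, an enzyme of folate metabolism, and Dcps, the scavenger decapping enzyme, had log2 fold changes of 1.02 ± 0.18 (adjusted p = 0.127) and 0.57 ± 0.10 (adjusted p = 0.142). By DESeq2 Egf, Trim45, Sgms2, Mpeg1, Exosc8, Fcrl2, Gstm4 and Mthfs were among the 26 called, and Dcps was not. No library of one group overlapped the other in any of these genes, as in 13.7% of all genes tested. The genes were chosen for their small p in this comparison, so the lack of overlap follows largely from that choice.

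Prelp, a small leucine-rich proteoglycan of connective tissue, is named because it was called in FSL vehicle against FRL vehicle. A high level of Prelp in FSL vehicle follows from that choice. It stood at 30.6, 29.9 and 29.4 CPM in non-responders, 15.7, 14.4 and 19.2 CPM in responders, 37.3, 37.3 and 74.3 CPM in FSL vehicle and 11.8, 13.3 and 7.24 CPM in FRL vehicle. The order of the groups was FSL vehicle, non-responders, responders and FRL vehicle, with no overlap between non-responders and any of the others (13.7% of genes had none against FRL vehicle, 7.62% against FSL vehicle and 11.3% against responders). Against FRL vehicle the log2 fold change was 1.46 ± 0.30 in non-responders (edgeR adjusted p = 0.279) and 2.20 ± 0.30 in FSL vehicle (adjusted p = 0.0333). The direct differences of non-responders were -0.74 ± 0.28 from FSL vehicle (95% interval -1.35 to -0.13) and 0.86 ± 0.29 from responders (0.23 to 1.49), and neither passed adjustment (0.976 and 0.992). Summed meningeal and fibroblast markers were 215, 687 and 695 CPM in non-responders, 377, 151 and 169 CPM in responders, 213, 993 and 2746 CPM in FSL vehicle and 251, 402 and 205 CPM in FRL vehicle. The FSL vehicle library with the highest sum was also the highest in Prelp. FSL vehicle 1 and 2 both had Prelp at 37.3 CPM, at sums of 213 and 993 CPM. Non-responder 1 had the lowest sum of its group, with Prelp at 30.6 CPM against 29.9 and 29.4 CPM. FSL vehicle 1 and non-responder 1 were also the libraries highest in summed choroid plexus markers, at 3881 and 6987 CPM. The cause of the Prelp levels was not tested. With the meningeal markers as a covariate the log2 fold change of Prelp in non-responders over FRL vehicle was 1.33 (edgeR adjusted p = 0.166). With the choroid plexus markers as a covariate it was 1.42 (edgeR adjusted p = 0.808).

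**Figure D3:**
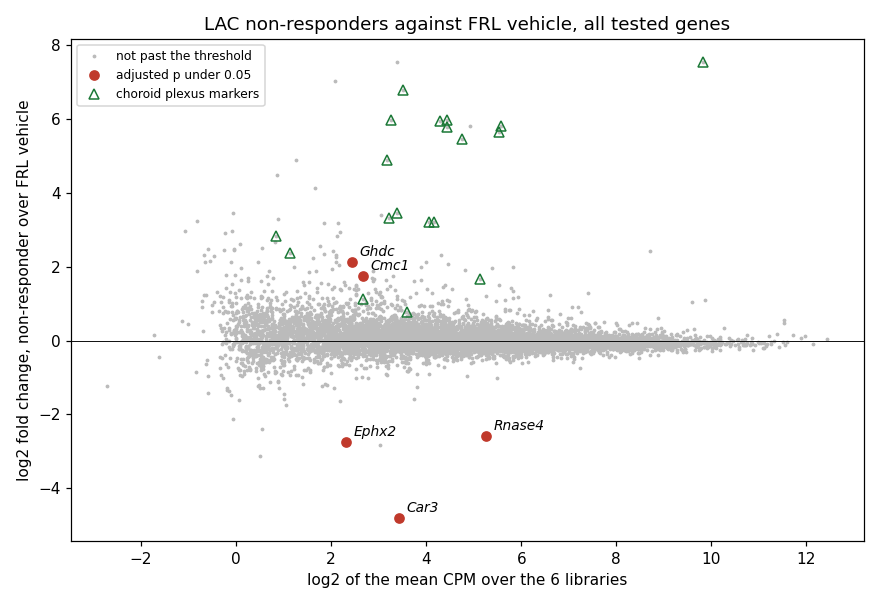
Log2 fold change of non-responders over FRL vehicle for each tested gene with reads in FRL vehicle, against the log2 of its mean CPM over the 6 libraries. The 5 called genes are named, and open triangles mark the choroid plexus markers, all of which lie above 0.

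Cyp2d1, a cytochrome P450 gene of drug metabolism, was read in every FSL library and in no FRL library. It had 7, 8 and 13 reads in non-responders and 0, 0 and 0 in FRL vehicle, which is at least 8.95-fold higher against a floor of 3 reads over the 3 FRL libraries. It did not pass by edgeR (adjusted p = 0.0975) and passed by DESeq2 (0.0222) and limma-voom (0.0124). Its close copy Cyp2d3, named after its values were seen and too low to be tested, had 7, 3 and 5 reads in non-responders and 0 in each FRL vehicle library, at least 4.75-fold higher. Of all 17172 genes these 2 alone had 0 reads in FRL vehicle and 3 or more in every non-responder, and no gene had the opposite pattern. Cyp2d4, the main Cyp2d gene read in this tissue, had 125, 136 and 120 reads in non-responders and 134, 93 and 123 in FRL vehicle. Reads shared by such copies were not counted, so the split between Cyp2d1 and Cyp2d3 is uncertain. Their promoters are shown because they are near copies: on GRCr8 Cyp2d1 is at chr7:115793381-115793680 and Cyp2d3 at chr7:115802093-115802392, both on the minus strand, with the longest run of identical bases in capitals.
Cyp2d1: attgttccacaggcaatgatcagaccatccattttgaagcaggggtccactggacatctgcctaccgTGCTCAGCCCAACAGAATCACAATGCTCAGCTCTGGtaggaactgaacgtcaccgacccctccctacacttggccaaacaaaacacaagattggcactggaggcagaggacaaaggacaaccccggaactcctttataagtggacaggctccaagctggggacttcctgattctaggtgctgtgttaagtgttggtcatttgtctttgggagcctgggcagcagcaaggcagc
Cyp2d3: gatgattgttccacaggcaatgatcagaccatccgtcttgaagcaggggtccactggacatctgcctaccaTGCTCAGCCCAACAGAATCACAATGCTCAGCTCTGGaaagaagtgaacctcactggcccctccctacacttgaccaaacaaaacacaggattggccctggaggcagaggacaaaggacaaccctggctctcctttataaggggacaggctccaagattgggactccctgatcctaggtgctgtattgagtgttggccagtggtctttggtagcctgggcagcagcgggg
Of 296 aligned bases 268 were identical, or 90.5%, and the longest shared run was 36 bases.

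Genes linked to LAC and to stress in earlier work did not pass the test. The log2 fold change of Grm2 was -0.29 ± 0.24, with 88.1, 82.9 and 74.5 CPM in non-responders and 82.3, 99.5 and 121 CPM in FRL vehicle. These overlapped, and the 95% interval ran from -0.83 to 0.24. Nr3c1 and Nr3c2, the glucocorticoid and mineralocorticoid receptors, differed by 0.13 ± 0.12 and 0.31 ± 0.34, Bdnf, the neurotrophin gene, by -0.01 ± 0.19, and Insr, the insulin receptor, by 0.02 ± 0.16. Of the carnitine genes, Crat, which moves acetyl groups between carnitine and coenzyme A, differed by -0.05 ± 0.09, the carnitine palmitoyltransferase Cpt1a by 0.08 ± 0.09 and the carnitine transporter Slc22a5 by 0.10 ± 0.21. Sgk1, a kinase induced by glucocorticoids, was at 297, 275 and 310 CPM in non-responders and 199, 237 and 205 CPM in FRL vehicle, a log2 fold change of 0.47 ± 0.14 (edgeR adjusted p = 0.754). Its groups did not overlap, as in 13.7% of all genes tested, and it did not pass. Sgk1 stood at 188, 175 and 187 CPM in FSL vehicle, below FRL vehicle, and at 222, 321 and 213 CPM in responders. The stress genes Fkbp5 and Crh differed by 0.13 ± 0.26 and -0.13 ± 0.43.

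By edgeR, called members stood in 3 of 30 gene lists, with 1 each: Ephx2 among 37 tested antioxidant and xenobiotic enzymes, Car3 among 11 carbonic anhydrases and Rnase4 among 2 genes of the ribonuclease list. Over all genes the share called was 0.0426%. The lists were chosen with earlier results of these data known, so the count of lists with called members is no separate support. By DESeq2 called members stood in 8 lists, among them Egf of the neurotrophin and growth factor list, Sgms2 of the sphingolipid enzymes, Prelp of the matrix list and Gstm4 and Cyp2d1 of the antioxidant list. By limma-voom they stood in 3 lists and in the fit of the 2 groups in 4, where Ephx1 (adjusted p = 0.0318) was called. The medians were 0.04 for the antioxidant enzymes, of which 7 were higher and 2 lower at unadjusted p under 0.05 (3.15% and 2.09% of all genes), and -0.01 for the carbonic anhydrases, whose other 10 members did not pass. The fatty acid oxidation and carnitine list had 22 of 26 members above 0 and a median log2 fold change of 0.11, with 2 at unadjusted p under 0.05. Its member Hadh, an enzyme of mitochondrial beta-oxidation, stood at 32.7, 36.5 and 29.2 CPM in non-responders and 23.1, 28 and 25.5 CPM in FRL vehicle (0.37 ± 0.15, edgeR adjusted p = 0.93). In oxidative phosphorylation 45 of 54 members were below 0, with a median of -0.05 that was -0.0875 without non-responder 1 and -0.000755 without non-responder 3. In glycolysis and the citrate cycle 29 of 35 were below 0, with a median of -0.07 that ran from -0.125 without non-responder 1 to -0.041 without FRL vehicle 2. No member of these 3 lists was called by edgeR, DESeq2 or limma-voom.

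Synaptic and regulatory lists lay near the median of all genes. The median was -0.09 for 32 genes of glutamate receptors and transport, 0.01 for 33 genes of insulin and glucose signalling, -0.03 for 26 genes of histone acetylation and DNA methylation, 0.02 for 21 genes of the stress axis and 0.05 for 25 neurotrophin and growth factor genes. With 1 library left out the insulin median ran from -0.0335 to 0.0744 and the neurotrophin median from -0.0646 to 0.0838. Among them Grin1, the obligatory subunit of NMDA receptors, differed by -0.15 ± 0.09 and Sirt2, a deacetylase, by 0.29 ± 0.10. Immediate early genes had a median of -0.11, with 25 of 36 members below 0. Their summed level was 1614, 1684 and 1559.5 CPM in non-responders and 1569, 2406 and 1653 CPM in FRL vehicle, so FRL vehicle 2 alone was high, and without it the median was 0.04; without FRL vehicle 1 it was -0.229.

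Immune lists had no member called by edgeR, and DESeq2 called Mpeg1 of the antigen presentation and innate immunity list. That list was above 0 in 27 of 28 members, with a median of 0.25 that ran from 0.107 without FRL vehicle 3 to 0.494 without non-responder 1. Complement genes were above 0 in 18 of 21, with a median of 0.34 that ran from 0.288 without non-responder 3 to 0.562 without non-responder 1. Clu alone makes up most of the summed complement level, and without it the sum was 381, 570 and 632 CPM in non-responders and 398, 424 and 359 CPM in FRL vehicle, which overlapped. Of 16 microglia markers 14 were above 0, with a median of 0.25, and 5 were higher at unadjusted p under 0.05, against 3.15% of all genes. Tmem119, a marker of resting microglia, was at 22.2, 21.3 and 22.7 CPM in non-responders and at 11.6, 11.7 and 11.5 CPM in FRL vehicle (0.93 ± 0.24, edgeR adjusted p = 0.687), and it passed in the fit of the 2 groups alone (adjusted p = 0.0318). P2ry12, the microglial purine receptor, differed by 0.67 ± 0.20 (adjusted p = 0.754), while Aif1, which encodes the microglial protein Iba1, differed by 0.02 ± 0.18. Meningeal and fibroblast markers were above 0 in 17 of 17. With their mean as a covariate the medians became 0.03 for antigen presentation and 0.07 for complement. Over all 26 alternatives the microglia median ran from 0.138 to 0.390. The part of meningeal tissue in the immune values was not tested.

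**Figure D4:**
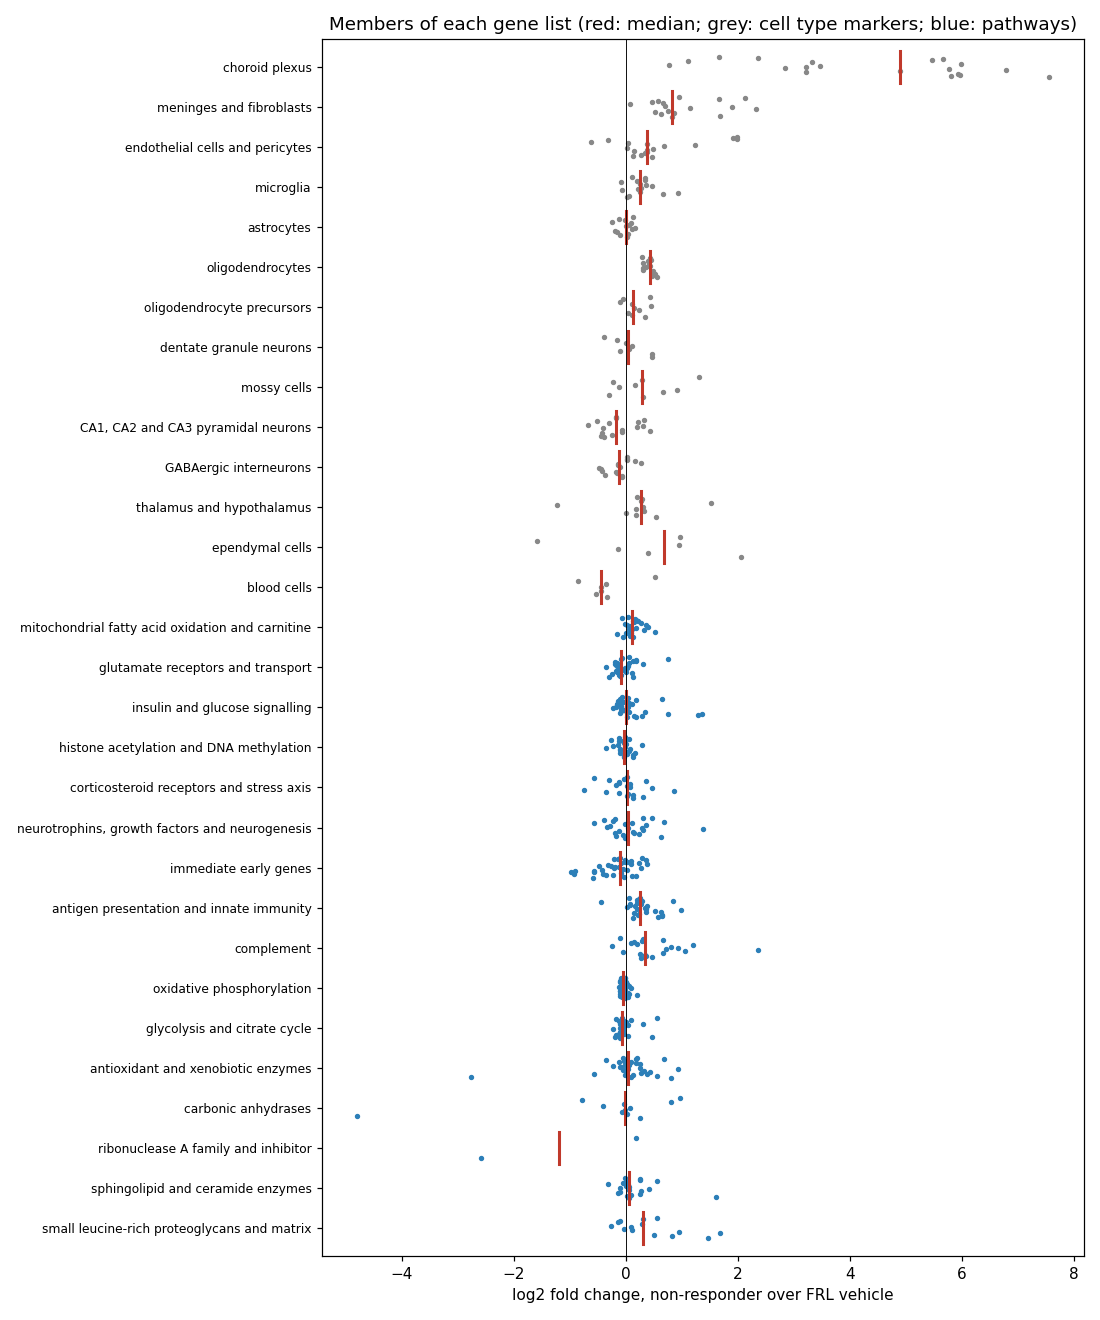
Log2 fold changes of non-responders over FRL vehicle for the members of each gene list, with the median in red, cell type markers in grey and pathways in blue; Cyp2d1 is left out. Choroid plexus markers lie far to the right (median 4.90), and the ribonuclease list, of 2 members, lies to the left.

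Of the markers of cells beside the granule layer, none was called by edgeR, while DESeq2 called Ttr and Col8a1 of the choroid plexus list. All 19 tested choroid plexus markers were above 0, with a median of 4.90. The summed level of the 20 choroid plexus markers among the genes counted was 6987, 88 and 148 CPM in non-responders and 69, 59 and 46 CPM in FRL vehicle. Without non-responder 1 the median of the tested markers was 1.05. Meningeal markers had a median of 0.82 that ran from 0.629 without FRL vehicle 3 to 1.35 without FRL vehicle 2. It was 1.82 with non-responder 1 and FRL vehicle 2 left out. Their sum was 215, 687 and 695 CPM in non-responders and 251, 402 and 205 CPM in FRL vehicle, which overlapped. Oligodendrocyte markers were above 0 in 15 of 15, with a median of 0.43 that ran from 0.204 without non-responder 2 to 0.588 without FRL vehicle 2, and their sum was 7511, 12404 and 7704 CPM in non-responders and 5528, 7851 and 6456 CPM in FRL vehicle, which overlapped. Astrocyte and granule neuron markers had medians of 0.01 and 0.03, and with 1 library left out each took both signs. Markers of pyramidal neurons had a median of -0.18, from -0.351 without FRL vehicle 1 to -0.0579 without FRL vehicle 2, and interneurons -0.12, from -0.18 to -0.0329 in the same fits. With the mean of the choroid plexus markers as a covariate, Car3 (adjusted p = 0.0284) and Ghdc (0.0319) remained called, and Rnase4 (0.103), Cmc1 (0.201) and Ephx2 (0.236) did not, while their log2 fold changes stood at -2.61, 1.75 and -2.85, against -2.59, 1.74 and -2.76 without the covariate. With the meningeal markers as a covariate all 5 remained called. The part of oligodendrocyte markers in the results was not tested.

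**Figure D5:**
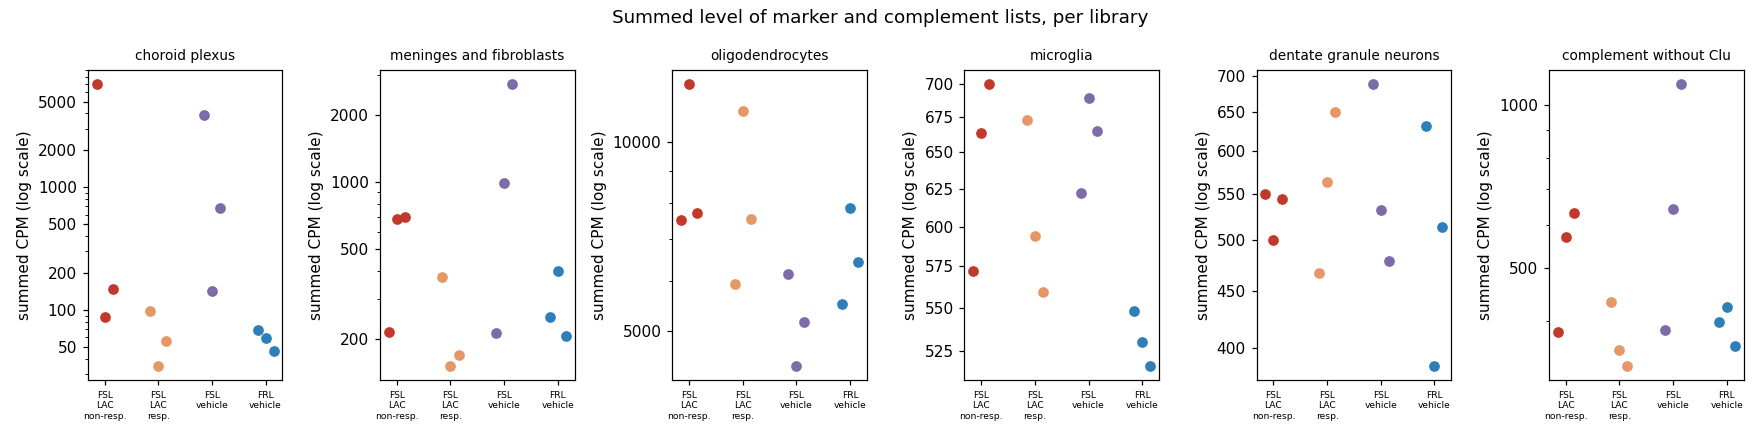
Summed CPM of 5 cell type marker lists and of complement genes other than Clu in each library (log axis), in LAC non-responders, LAC responders, FSL vehicle and FRL vehicle. Non-responder 1 stands at 6987 CPM for choroid plexus, and complement genes without Clu lie at 381 to 632 CPM in non-responders, overlapping FRL vehicle at 359 to 424 CPM.

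By size alone, 261 genes differed by more than 2-fold between the groups. With a minimum mean of 1 CPM and groups that did not overlap there were 104 of 11750 genes tested, 84 higher and 20 lower in non-responders. At any size of difference, 7.11% of genes were higher without overlap and 6.55% lower. Choroid plexus markers summed to 6987 CPM in non-responder 1, against 88 and 148 CPM in the other non-responders. The part of single libraries in the count of 84 was not tested. The median standard deviation per gene on the log2 scale was 0.127 in non-responders, 0.142 in responders, 0.215 in FSL vehicle and 0.145 in FRL vehicle. Igf2, made by choroid plexus and meninges in brain, was among the higher genes, at 241, 228 and 257 CPM in non-responders and 77.4, 146 and 74.1 CPM in FRL vehicle (1.29 ± 0.68, edgeR adjusted p = 0.956). Me1 and Olig2 differed by less than 2-fold and are not among the genes counted above. Me1, malic enzyme 1 of the cytosol, was at 126, 103 and 124 CPM in non-responders and 92.3, 80.6 and 66.5 CPM in FRL vehicle (0.56 ± 0.15, adjusted p = 0.705). Olig2, the transcription factor of the oligodendrocyte lineage, was at 37.9, 40.3 and 38.2 CPM in non-responders and 27.2, 27.0 and 31.5 CPM in FRL vehicle (0.45 ± 0.14, adjusted p = 0.754).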

How the data were processed

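Read counts per gene in 6 libraries (LAC non-responders and FRL vehicle, 3 each) were compared in a fit of all 12. The deposited files hold whole-number counts, not normalized, for 17172 genes and 5 summary lines. Named without roles in the submitters' processing notes are TopHat2 2.0.9, Trimmomatic 0.33, FastQC 0.11.3, edgeR 3.12.0, HTSeq 0.6.1 and the build rn5. The kit was stranded, per the labels' protocols, but no source used here gives the annotation or the strand setting of counting, so reads of genes that overlap, antisense ones included, may be mixed. Summary lines were left out: reads in no gene (47.7% to 52.7% of reads), with several alignments (24.3% to 28.4%) and ambiguous (0.0756% to 0.106%).

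Genes were tested with R 4.3.3 and edgeR 4.0.16 (TMM factors, default filter on groups, robust quasi-likelihood fit, 1 mean per group, Benjamini-Hochberg adjustment, threshold 0.05), tested on simulated data. Alternatives were other scalings and filters, DESeq2 1.42.0, limma-voom 3.58.1, a fit of the 2 groups, the replicate number as a block, marker covariates, other thresholds and each library left out. Same-number libraries of non-responders and FSL vehicle deviated together (correlations 0.581, 0.211 and 0.425), though the labels name no pairing. Number 1 was high in Ttr in both groups (5368 CPM in non-responders and 2807 CPM in FSL vehicle). Whether the numbers mark pairs was not tested. Between these groups 0 genes were called with or without the block. Leaving out non-responder 1 and FRL vehicle 2 together was chosen after seeing the data. A floor is 3 counts, 0.386 to 0.517 CPM in an FRL vehicle library, and covers counting error only. Members and lists were chosen with earlier results of these data known. Genes named are those called, the 15 of smallest p, genes called in FSL vehicle against FRL vehicle, fixed genes of the study (Ep300 and Kat2b are not analysed here), list members that were called or of smallest p, neighbours of called genes, and defining markers. RefSeq tables on GRCr8 gave promoters and the order of genes, with 16750 symbols matched.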

Additional observations from a re-analysis of the deposited data

How the results depend on the processing

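The count of genes called between non-responders and FRL vehicle was 5 in the main test and also with DESeq2 size factors, upper-quartile factors, no filter, a minimum mean of 1 CPM, limma-voom (4 of the 5, with Cyp2d1 in place of Cmc1) and the meningeal covariate. It was 26 by DESeq2 (the 5 among them), 9 in a fit of the 2 groups, 2 with the choroid plexus covariate, 2 at a threshold of 0.01, 11 at 0.1, and 1 without non-responder 1 and FRL vehicle 2. With 1 library left out it ran from 2 to 12: 2 without FRL vehicle 1, non-responder 1 or non-responder 2, 3 without FRL vehicle 2, responder 2 or responder 3, and 12 without FSL vehicle 3. The causes were not tested. Over all fits the log2 fold change ran from -5.25 to -4.51 for Car3, 1.97 to 2.30 for Ghdc, -2.77 to -2.38 for Rnase4, 1.45 to 1.89 for Cmc1 and -2.95 to -2.56 for Ephx2.

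With the replicate number as a block the count was 2, and 36 in a fit of the 2 groups. For the main comparison the libraries share only a number: same-number libraries of non-responders and FRL vehicle correlated at 0.189, 0.267 and -0.00996, and numbers 1 and 2 but not 3 matched their own number best. With the block the count was 4 for FSL vehicle against FRL vehicle (2 in a fit of these groups) and 3 for responders against FRL vehicle (1 in a fit of these groups).

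FSL vehicle against FRL vehicle gave 8 calls, and 160 by DESeq2, 5 by limma-voom, 2 in a fit of these groups, 0 with the choroid plexus covariate, 4 with the meningeal covariate, 3 at 0.01, 21 at 0.1, 2 to 271 with 1 library left out and 2 without the libraries that stood apart. Responders against FRL vehicle gave 10 calls, and 24 by DESeq2, 1 in a fit of these groups, 3 with the choroid plexus covariate, 3 at 0.01, 16 at 0.1, 0 to 10 with 1 library left out and 2 without the libraries that stood apart. Non-responders against FSL vehicle gave 0, and 2 by DESeq2 and 0 with the block, which changed no call there.

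Some uncalled log2 fold changes over FRL vehicle changed sign. By limma-voom Crh was 0.0214 and Aif1 -0.00151. With the choroid plexus covariate Insr was -0.0818 and Ttr -0.374, and with the meningeal covariate Aif1 was -0.1045, Bdnf 0.0863, Fkbp5 -0.0411 and Slc17a6 -0.0392. Without both libraries that stood apart Crh was 0.149, Prox1 -0.0259, Gfap -0.0474, Nr3c2 -0.0553 and Slc22a5 -0.0228. With 1 library left out, Insr ran from -0.0505 to 0.116, Crat from -0.11 to 0.0121, Fkbp5 from -0.0741 to 0.309, Crh from -0.478 to 0.242, Bdnf from -0.194 to 0.115, Prox1 from -0.048 to 1.05, Gfap from -0.153 to 0.133 and Aif1 from -0.178 to 0.162. The difference of non-responders from FSL vehicle in Car3 then ran from -0.239 to 0.501. Their difference from responders ran from -0.0436 to 0.549 in Rnase4, -0.0305 to 0.215 in Cmc1 and -0.576 to 0.197 in Ephx2, and was -0.0319 in Cmc1 without both libraries. The other uncalled genes run through these alternatives kept their direction.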

Other observations

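The levels of some further genes, none of which passed by edgeR, are given here. Slc32a1, the vesicular transporter of GABA, was at 34.0, 29.5 and 38.3 CPM in non-responders and at 40.6, 44.7 and 46.4 CPM in FRL vehicle, a log2 fold change of -0.37 ± 0.13 that did not pass (edgeR adjusted p = 0.925), while Gad1, the GABA-making enzyme, differed by -0.06 ± 0.10. Dcx, a marker of new granule neurons, was at 61.3, 60.7 and 64.4 CPM in non-responders and 69.5, 84.0 and 74.8 CPM in FRL vehicle (-0.29 ± 0.13, edgeR adjusted p = 0.942). The neuronal activity gene Arc was at 114, 107 and 108 CPM in non-responders and 117, 259 and 114 CPM in FRL vehicle, where 1 library was high. Spag6, a gene of motile cilia, was at 10.4, 4.36 and 5.11 CPM in non-responders and 9.14, 16.1 and 35.2 CPM in FRL vehicle (-1.58 ± 0.46, edgeR adjusted p = 0.754). Foxj1, the regulator of motile cilia, was at 15.1, 3.97 and 2.55 CPM in non-responders and 2.06, 1.73 and 1.38 CPM in FRL vehicle (2.05 ± 0.74, edgeR adjusted p = 0.925). These markers of ependymal cells lay in opposite directions.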
